A study of Schizosaccharomyces pombe with 6 samples.

Results

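The 10 genes described are *hcs1*, *hmg1*, *erg9*, *erg1*, *erg11*, *erg25*, *erg6*, *sre1*, *scp1* and *ins1*, which encode enzymes of sterol synthesis and the Sre1 pathway that senses sterols in fission yeast. They were found by gene name in the authors' annotation table and make up 10 of the 6291 genes counted. The libraries came from 3 cultures of *nup211-so* with 30 μM (10 μg/mL) thiamine and 3 without it, all biological replicates of 1 haploid *h+* strain in Edinburgh minimal medium with adenine and leucine. In this strain the thiamine-repressible promoter P81nmt1 and the *ura4+* marker stand before the coding sequence of *nup211*, a nuclear pore basket gene. The paper's Results describe an insertion there, and its Methods a replacement of the endogenous promoter. All 6 cultures shared a *leu1-32 ura4-D18 ade6-M210* background. Thiamine cultures were grown for 24 hours, washed, diluted to an OD600 of 0.05 and grown for another 24 hours. For the no-thiamine cultures the hours of growth, any wash and the starting OD600 are not given in the sources used here. Effects of any such difference in culture cannot be told apart from those of thiamine. A strain with *nup211* under its own promoter was not used here, so effects of thiamine itself and of the *nup211* promoter cannot be told apart.

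Sterols are made from acetyl-CoA by way of mevalonate, farnesyl diphosphate and squalene, which is closed into lanosterol and then trimmed and desaturated to ergosterol, the main sterol of fungal membranes. Several of the late steps consume molecular oxygen. Fission yeast monitors sterol supply with Sre1, a membrane-bound transcription factor of the SREBP family that stays in the endoplasmic reticulum with its partner Scp1 while sterols are ample. When sterols or oxygen run short, Sre1 moves to the Golgi, is processed with the help of the Dsc ubiquitin ligase, and its N-terminal part enters the nucleus to activate genes of sterol synthesis and of life at low oxygen.

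Sequence at 2 places bears on the members. The first was the only match to the core of the sterol regulatory element (letters TCANNCCAC, searched on both strands) in the 250 bp before the annotated starts of the members, and it lay 52 bp before the RefSeq start of *sre1* (chrII:1691332-1691360, plus strand, ASM294v3). The match is in capitals.
*sre1* upstream: taaaaacatgTCAGTCCACttcttttttg
The deposited annotation starts *sre1* 124 bp further upstream than RefSeq, which places the match inside the transcript. The same letters were in the corresponding window of 57 of 5038 protein-coding genes (1.13%) and in none of the 33 other pathway genes examined. The E-box CACGTG was in 1.33% of them and in no window of a member or other pathway gene. The second place is shown because *hmg1* is the direct upstream neighbour of *nup211* on the plus strand of chromosome III. These 28 bases of the reference genome lie between the annotated end of *hmg1* and the deposited start of *nup211* (chrIII:1565492-1565519). Whether the promoter cassette replaced any of them in this strain is not stated in the labels.
*hmg1* to *nup211*: acttgaaattgaatttattagggtatca
How far the cassette altered the end of the *hmg1* transcript was not tested.

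Total counts ranged between 37195197 and 48815139 in the libraries, and ribosomal RNA genes took up 24.62% to 48.98% of them. *nmt1*, a thiamine-repressed gene, had 0, 3 and 2 counts in the thiamine libraries and 1631, 2061 and 1858 in the no-thiamine libraries. *nup211* itself had 644, 551 and 655 counts with thiamine and 477, 590 and 473 without. The difference between the groups on the log2 scale (log2 fold change, thiamine over no thiamine) was -0.17 for *nup211* (standard error, SE, 0.11, adjusted p = 0.199, edgeR's quasi-likelihood test with TMM normalization and Benjamini-Hochberg adjustment over 5434 genes), so a lower *nup211* mRNA level was not detected with this scaling and the groups are named by thiamine only. With upper-quartile normalization the value was -0.47 (adjusted p = 0.00686), with the length and GC trends over genes removed -0.77 (adjusted p = 0.000404), and with library totals 0.40 (adjusted p = 0.0851, all with edgeR). An antisense RNA gene overlaps 87.4% of *nup211*, so if reads of the shared stretch were left out in counting, these counts come from a small remainder of the gene. They also do not measure the protein. The paper that reported the data showed less Nup211 protein by immunoblot in this strain grown with thiamine. The same test is used for all values below, with an adjusted p under 0.05 as the threshold. Levels are counts scaled by TMM to a common library size (CPM), and are relative to the other RNAs of a library. In bulk cultures fewer cells with a transcript and less of it per cell cannot be told apart. TMM gave 49.5% of called genes as higher and a median log2 fold change over all genes of -0.01. With library totals these were 82.2% and 0.57, with library totals without ribosomal RNA genes 68.1% and 0.31, and with upper-quartile normalization 34.6% and -0.31.

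With TMM, the mRNAs of the early enzymes *hcs1* and *hmg1* and of the Sre1 partner *scp1* were lower with thiamine, whereas those of *erg1*, *erg11* and *erg25* and of *sre1* and *ins1* were higher. The 3 falls were not called with library totals, where *hmg1* lay just above 0, and the rise of *erg11* was not called with upper quartiles. Of the 10 members, 8 passed the test (5 higher and 3 lower), beside 69.8% of all genes tested (34.5% higher and 35.3% lower). The same 8 had CPM values that did not overlap between the groups, which was so for 75.5% of all genes. The share of members called was thus near that of all genes. A called change of at least 2-fold was seen for *erg1* and *ins1*, 2 of the 10, beside 29.9% of all genes. The median log2 fold change of the 10 members was 0.27, beside -0.01 over all genes. *erg9* and *erg6* did not pass the test.

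**Figure D1:**
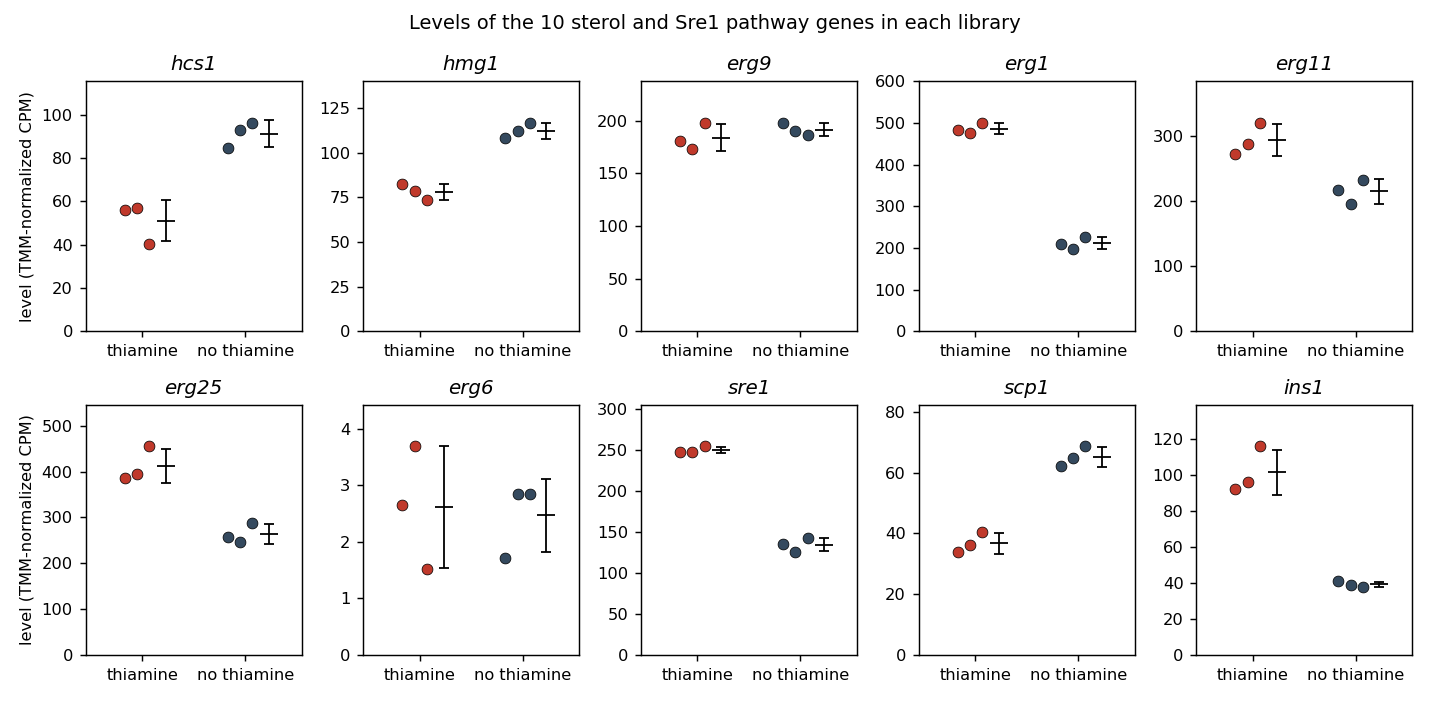
Level of each member in TMM-normalized CPM (linear axes from 0) in the 3 thiamine libraries (red, left) and the 3 no-thiamine libraries (dark, right). Points are libraries in the order of replicates 1 to 3 and bars show the mean with its SD. The groups are apart for 8 members and overlap for *erg9* and *erg6*, and *erg6* stays under 4 CPM.

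The mevalonate enzymes were examined first. *hcs1* (SPAC4F8.14c, chromosome I, 2643524 to 2645254, 3 exons) encodes HMG-CoA synthase, which builds the precursor of mevalonate. Its level was 55.9, 57.1 and 40.3 CPM in the thiamine libraries, against 84.5, 93.0 and 96.3 CPM in the no-thiamine libraries. Each thiamine library was below each no-thiamine library, and thiamine replicate 3 was the lowest. On the log2 scale the change was -0.84 (SE 0.13, adjusted p = 0.000523), 1.79-fold lower with thiamine. An antisense RNA gene overlaps 48.8% of *hcs1*, and reads of the shared stretch could not be told apart unless counted by strand, which is not given in the sources used here.

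*hmg1* (SPCC162.09c, chromosome III, 1561215 to 1565491, 1 exon) encodes HMG-CoA reductase, the rate-limiting enzyme that makes mevalonate. It had 82.4, 78.3 and 73.3 CPM with thiamine, against 108, 112 and 117 CPM without. The groups did not overlap, and the spread within either was small beside the difference. This was a log2 fold change of -0.52 (SE 0.08, adjusted p = 0.000333), or 1.44-fold lower with thiamine. This fall depended on the scaling: the value was 0.05 with library totals (adjusted p = 0.858) and -0.20 with library totals without ribosomal RNA genes (adjusted p = 0.0534), both from edgeR. In the other direction, the value was -0.82 with upper-quartile normalization and -1.03 with the length and GC trends over genes removed. *ura4*, the marker of the cassette beside *hmg1*, had 22.9, 21.7 and 26.2 CPM with thiamine, against 74.7, 78.6 and 84.8 CPM without.

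The other enzymes between acetyl-CoA and farnesyl diphosphate moved the same way where they could be measured. Of the 6 others listed, 5 were called lower and none higher, beside 35.3% lower and 34.5% higher among all genes tested. *fps1*, which makes farnesyl diphosphate, had 68.8, 65.5 and 59.8 CPM with thiamine, against 174, 176 and 171 CPM without, and its log2 fold change was -1.42 (SE 0.08, adjusted p = 1.74e-06). Its replicates differed little within either group. The change was -0.90 for *erg10* (acetyl-CoA acetyltransferase), -0.99 for *erg12* (mevalonate kinase) and -0.97 for *idi1* (isopentenyl diphosphate isomerase). *mvd1* (diphosphomevalonate decarboxylase) changed by -1.44, but other genes overlap 85.1% of it and it had 66, 41 and 38 counts with thiamine, against 124, 88 and 81 without. *erg8* (phosphomevalonate kinase), overlapped over 94.95% of its length and with 16 to 34 counts in a library, had a value of -0.09 (95% interval -0.86 to 0.68). With *hcs1* and *hmg1*, 7 of 8 mevalonate genes were called lower (35.3% of all genes), with a median of -0.93. With library totals 2 of the 8 were called lower and *hmg1* lay above 0. With library totals without ribosomal RNA genes 6 of the 8 were called lower, and with upper-quartile normalization 7. Relative to the median change of all genes, the median of the 8 was -0.92 with TMM and -0.93 with library totals. A whole-library scaling moves all genes together, so the likeness of these values is no separate evidence. With the length and GC trends over genes removed, the value was -0.79.

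The enzymes that act on squalene and lanosterol showed another picture. *erg1* (SPBC713.12, chromosome II, 892160 to 894361, 1 exon) encodes squalene monooxygenase, the first oxygen-consuming step. It had 482.5, 476.7 and 500.5 CPM in the thiamine libraries, against 210.3, 196.8 and 226.1 CPM in the no-thiamine libraries. Each thiamine library was above each no-thiamine library by more than the highest no-thiamine value. The change was 1.205 on the log2 scale (SE 0.10, adjusted p = 1.04e-05), the largest among the 5 sterol enzymes of the member list, and 13.2% of all genes tested had a higher one.

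*erg25* (SPAC630.08c, chromosome I, 359638 to 361317, 1 exon) encodes the C-4 methylsterol oxidase, which needs oxygen to remove methyl groups. Its level was 386, 396 and 455 CPM with thiamine, against 257, 246 and 288 CPM without. The lowest thiamine library lay above the highest no-thiamine library. The change came to 0.64 on the log2 scale (SE 0.11, adjusted p = 0.000846). *erg11* (SPAC13A11.02c, chromosome I, 574652 to 577153, 1 exon) encodes lanosterol 14-demethylase, a cytochrome P450 and the target of azole antifungals. It had 272, 288 and 320 CPM with thiamine, against 218, 195 and 232 CPM without. The groups were again apart, by a smaller gap. The log2 fold change of 0.45 (SE 0.11, adjusted p = 0.00495) was not past the threshold with upper-quartile normalization (0.15, adjusted p = 0.187) or with the length and GC trends over genes removed (0.19, adjusted p = 0.112), both with edgeR.

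*erg9* (SPBC646.05c, chromosome II, 931002 to 932472, 1 exon) encodes squalene synthase, which commits farnesyl diphosphate to sterols. Its level was 181, 174 and 198 CPM with thiamine, against 198, 190 and 186 CPM without. The groups overlapped, and the log2 fold change was -0.06 (95% interval -0.25 to 0.14, adjusted p = 0.577, edgeR). Its sign depended on the scaling, as it was called higher with library totals (0.53) and lower with upper-quartile normalization (-0.35). *erg6* (SPBC16E9.05, chromosome II, 1923510 to 1925394, 1 exon) encodes sterol 24-C-methyltransferase, which gives fungal sterols their side-chain methyl group. It had 129, 177 and 82 counts with thiamine, against 66, 109 and 98 without. The annotated genes *pac3* and *uvi31* overlap all of it, and no difference was detectable at these low counts (log2 fold change 0.08, 95% interval -0.68 to 0.85, adjusted p = 0.838, edgeR).

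Of the 12 other genes of the sterol steps, 5 were called higher, 3 lower and 4 neither, with a median log2 fold change of -0.02, beside 34.5% higher and 35.3% lower among all genes. This balance turned with the scaling, since upper quartiles gave 2 higher and 6 lower, and library totals 6 higher and 1 lower. The highest value was that of *erg32*, one of a pair of C-5 sterol desaturases. It had 114, 112 and 154 CPM in the thiamine libraries, against 27.97, 27.2 and 29.4 CPM in the no-thiamine libraries. Its log2 fold change was 2.17 (SE 0.13, adjusted p = 2.28e-06), and 3.61% of all genes tested had a higher one. Its paralogue *erg31*, which has the same activity, was instead lower, with 80.7, 87.5 and 75.6 CPM with thiamine, against 115, 97.2 and 111 CPM without (log2 fold change -0.41, adjusted p = 0.00404, edgeR). The fall of *erg31* was not called with library totals (0.17) or with library totals without ribosomal RNA genes (-0.09). Over the 542 bp that could be aligned the pair was 65.9% identical, and no gene listed had a stretch of at least 100 bp at 95% identity with another counted gene.

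The lanosterol synthase gene *erg7* (0.68, adjusted p = 3.99e-05), the C-24(28) sterol reductase gene *sts1*, also called *erg4* (0.46, adjusted p = 0.000593), the C-22 desaturase gene *erg5* (0.33, adjusted p = 0.0258) and the P450 reductase gene *ccr1* (0.25, adjusted p = 0.0202, all with edgeR) were the other genes called higher. With upper-quartile normalization *sts1* (0.16), *erg5* (0.04) and *ccr1* (-0.05) were not called, and *erg5* also lost its call without any 1 library except thiamine replicate 3 (adjusted p up to 0.103) and *ccr1* without thiamine replicate 1 or any 1 no-thiamine library (up to 0.0806, edgeR). *erg28*, whose budding yeast counterpart holds the C-4 demethylation enzymes together, was lower, with 19.6, 21.5 and 8.19 CPM with thiamine, against 39.4, 42.6 and 39.7 CPM without (log2 fold change -1.31, adjusted p = 0.00369, edgeR). Thiamine replicate 3 was far below the other two thiamine libraries for this gene, and *dre2* overlaps 61.6% of it. *dap1*, a regulator of cytochrome P450, was also called lower (-0.32), though not with library totals, where the value was 0.27, and *erg24*, *erg26*, *erg27* and *erg2* were not called.

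**Figure D2:**
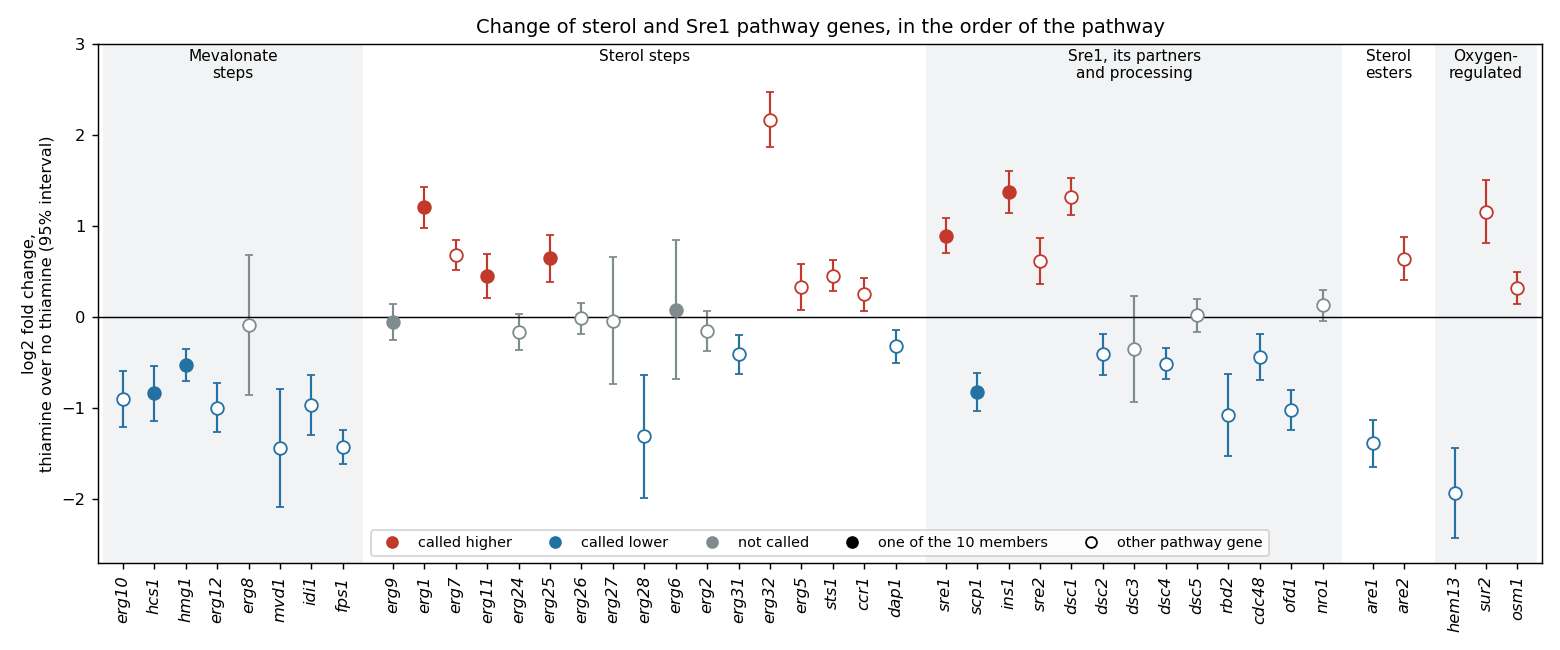
Log2 fold change (thiamine over no thiamine, TMM scaling) with its 95% interval for the 10 members (filled) and the 33 other pathway genes (open), in the rough order of the pathway. Red and blue mark genes called higher and lower and grey those not called. All point values of the mevalonate block lie below 0 and no gene in it was called higher, while the sterol block spans *erg32* at 2.17 and *erg28* at -1.31.

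Among the regulators, *sre1* (SPBC19C2.09, chromosome II, 1691394 to 1694691, 1 exon) encodes the transcription factor itself. Its level was 247.6, 247.9 and 254.3 CPM in the thiamine libraries, against 135.6, 125.7 and 142.5 CPM in the no-thiamine libraries. The thiamine libraries lay close together and well above the highest no-thiamine library. The change was 0.89 on the log2 scale (SE 0.08, adjusted p = 2.5e-05), 1.86-fold higher with thiamine. With the length and GC trends over genes removed it was 0.56 (adjusted p = 0.000263, edgeR). This was the member with the sequence match shown above, and no link between the match and the change was tested.

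*scp1* (SPBC3B9.15c, chromosome II, 4011148 to 4014884, 2 exons) encodes the SCAP homologue that binds Sre1 and carries it to the Golgi. It moved the other way, with 33.7, 36.1 and 40.4 CPM with thiamine, against 62.0, 64.6 and 68.6 CPM without. No library of either group came near the other group. This was a log2 fold change of -0.83 (SE 0.09, adjusted p = 5.76e-05), 1.77-fold lower. With library totals it was -0.23 (adjusted p = 0.36, edgeR), and with the length and GC trends over genes removed -1.27.

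*ins1* (SPCC306.05c, chromosome III, 416157 to 417667, 3 exons) encodes the INSIG homologue, which in fission yeast acts on HMG-CoA reductase, encoded by *hmg1*, by promoting its phosphorylation. Its level was 92.2, 96.2 and 116 CPM with thiamine, against 41.0, 38.8 and 37.9 CPM without. Every thiamine library was higher than every no-thiamine library. The change was 1.37 on the log2 scale (SE 0.10, adjusted p = 5.98e-06), 2.59-fold higher, and it was the largest of the 10 members under TMM. For the genes of the pair *ins1* and *hmg1* the changes thus had opposite signs under TMM, and with library totals *hmg1* was at 0.05 and *ins1* at 1.97.

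Of the 10 other genes for processing and turnover of Sre1, 2 were called higher, 5 lower and 3 neither, with a median of -0.38, beside 34.5% higher and 35.3% lower among all genes. With library totals 4 were called higher and 1 lower, with a median of 0.19 beside 0.57 over all genes. *dsc1*, the ubiquitin ligase subunit of the Golgi Dsc complex, had 248.5, 253.9 and 275.0 CPM with thiamine, against 110.5, 98.5 and 101.4 CPM without (log2 fold change 1.32, SE 0.09, adjusted p = 3.73e-06). Of its partners, *dsc2* (-0.41) and *dsc4* (-0.51) were called lower and *dsc3* and *dsc5* were not called. With library totals *dsc2* was at 0.16 and *dsc4* at 0.07, both not called, while *dsc1* stayed higher. *ofd1*, a dioxygenase that speeds the breakdown of the nuclear form of Sre1 when oxygen is present, had 42.4, 42.2 and 34.9 CPM with thiamine, against 80.5, 76.9 and 84.6 CPM without (-1.02, adjusted p = 2.39e-05, edgeR). With library totals its value was -0.45 (adjusted p = 0.0618, edgeR). *rbd2*, the Golgi rhomboid protease of Sre1 processing, was also lower (-1.08, adjusted p = 0.00118, edgeR), as was *cdc48*, an AAA ATPase with many other roles, at -0.44 with TMM but 0.15 and not called with library totals. *sre2*, a second membrane-tethered factor, was higher (0.61, adjusted p = 0.0011, edgeR), but not past the threshold with trends of length and GC content removed (0.11, adjusted p = 0.376). The *ofd1* inhibitor *nro1* was not called.

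The sterol ester synthases moved apart. *are1* had 19.6, 19.0 and 14.9 CPM with thiamine, against 48.7, 45.6 and 45.4 CPM without (-1.38, adjusted p = 1.06e-05), and *are2* had 56.8, 56.3 and 70.6 CPM with thiamine, against 39.6, 38.1 and 40.1 CPM without (0.64, adjusted p = 0.000509, edgeR). Of 3 oxygen-regulated genes outside sterol synthesis, *sur2* (a sphingolipid hydroxylase) and *osm1* (a fumarate reductase, not called with upper-quartile normalization) were higher and *hem13* was lower. *hem13*, which encodes the oxygen-using coproporphyrinogen oxidase of haem synthesis, had 82.2, 78.1 and 45.2 CPM with thiamine, against 248, 238 and 299 CPM without, a log2 fold change of -1.93 (SE 0.22, adjusted p = 6.3e-05). *sur2* had 384, 423 and 569 CPM with thiamine, against 208, 194 and 214 CPM without (1.16, adjusted p = 0.000158, edgeR). Among all 33 other pathway genes, 25 were called (69.8% of all genes), 10 higher and 15 lower, with a median of -0.16. With library totals 13 were higher and 6 lower, and with upper-quartile normalization 6 were higher and 19 lower.

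Levels of different members were compared as CPM per kb of exon. In the thiamine libraries *erg25* was the highest at 245 ± 22.2 CPM per kb (SD, n = 3), followed by *erg1* at 221 ± 5.63. *erg9* (125 ± 8.45) and *erg11* (117 ± 9.83) came next and overlapped each other, as did *ins1* (84.4 ± 10.6) and *sre1* (75.8 ± 1.14). Below these were *hcs1* (33.7 ± 6.16), *hmg1* (18.2 ± 1.07), *scp1* (9.98 ± 0.922) and *erg6* (1.39 ± 0.574). In the no-thiamine libraries the order was *erg25* (157 ± 13.1), *erg9* (130 ± 4.11), *erg1* (95.9 ± 6.67), *erg11* (85.9 ± 7.52), *hcs1* (60.2 ± 4.02), *sre1* (40.8 ± 2.57), *ins1* (32.6 ± 1.30), *hmg1* (26.2 ± 1.03), *scp1* (17.7 ± 0.902) and *erg6* (1.31 ± 0.344), where only *erg1* and *erg11* overlapped as neighbours. *erg6* is a fully overlapped gene and *hcs1* is overlapped over 48.8% of its length, and if shared reads were left out in counting their levels and places in this order are too low. *erg1* thus stood above *erg9* with thiamine and below it without, and *ins1* and *sre1* stood above *hcs1* with thiamine and below it without.

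Ratios of raw counts within a library do not depend on how libraries are scaled, and are given as a description. Each pair sets a gene called higher under TMM over a gene called lower, so the direction of the ratios follows from the choice of pairs. The *erg1* to *hmg1* count ratio was 5.85, 6.09 and 6.83 in the thiamine libraries, against 1.95, 1.76 and 1.94 in the no-thiamine libraries. The *ins1* to *scp1* ratio was 2.74, 2.67 and 2.87 with thiamine, against 0.661, 0.601 and 0.553 without. The *sre1* to *scp1* ratio was 7.35, 6.87 and 6.29 with thiamine, against 2.19, 1.94 and 2.08 without. The groups were apart for each of these ratios, which was fixed in advance because both genes of each pair were apart in opposite directions. The *sre1* and *scp1* mRNAs, whose proteins form 1 complex, were thus present in another proportion in each group. Within the desaturase pair, *erg32* to *erg31* was 1.42, 1.28 and 2.04 with thiamine, against 0.244, 0.280 and 0.264 without. For *are2* to *are1* the ratio was 2.89, 2.96 and 4.74 with thiamine, against 0.812, 0.835 and 0.882 without.

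**Figure D3:**
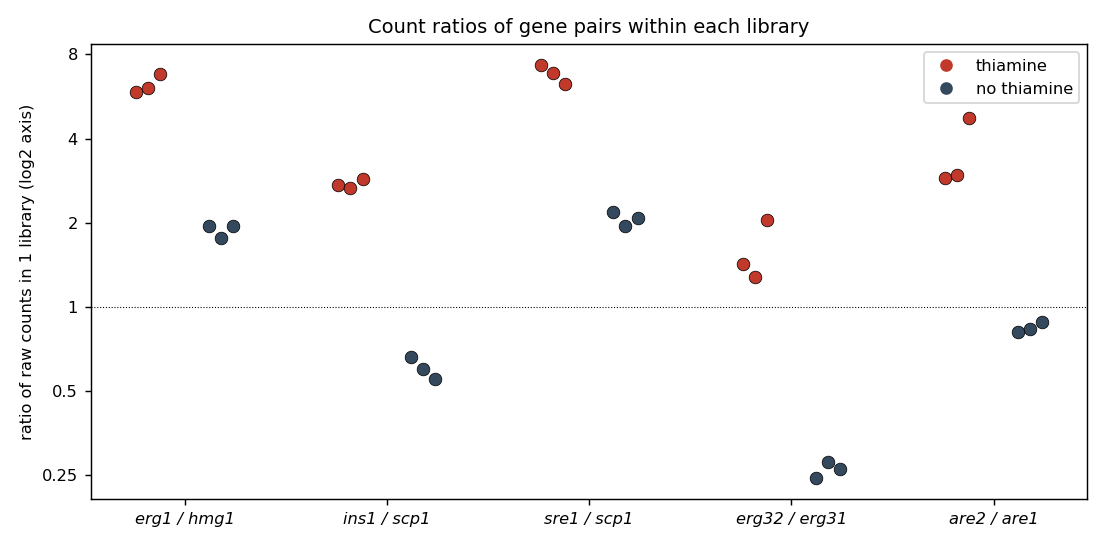
Ratio of the raw counts of 2 genes in each thiamine library (red) and each no-thiamine library (dark), on a log2 axis. The dotted line marks equal counts, not corrected for gene length. All 5 ratios are higher in every thiamine library, as follows from setting a gene called higher under TMM over one called lower. The ratios *ins1* to *scp1*, *erg32* to *erg31* and *are2* to *are1* lie on opposite sides of 1 in the groups.

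The members did not vary alike among replicates. The coefficient of variation within the thiamine group was 1.5% for *sre1* and 2.55% for *erg1*, but 18.3% for *hcs1* and 41.3% for *erg6*. In the no-thiamine group it was 3.16% to 8.76% for 9 members and 26.3% for *erg6*. Thiamine replicate 3, whose ribosomal RNA share was the lowest (24.6%, against 46.3% and 28.7% in the other thiamine libraries), lay outside the range of the other two for all 10 members, as it did for 86.8% of all genes tested. Of the 8 members called, 7 were farthest from the no-thiamine mean in this library and *scp1* was nearest, beside 69.4% farthest among all called genes. The part of the ribosomal RNA share in these values was not tested. Without thiamine replicate 3 all 8 calls were kept.

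The calls of 4 members, *erg1*, *erg25*, *sre1* and *ins1*, were kept with the same direction under all 15 alternative settings tried. Their log2 fold changes ranged from 0.91 to 1.79 for *erg1*, from 0.35 to 1.24 for *erg25*, from 0.56 to 1.48 for *sre1* and from 1.07 to 1.97 for *ins1*. The falls of *hcs1*, *hmg1* and *scp1* were called with TMM and upper quartiles but not with library totals. With library totals without ribosomal RNA genes, *hcs1* (-0.52, adjusted p = 0.00481) and *scp1* (-0.50, adjusted p = 0.00114, both with edgeR) were called lower. There *hmg1* was not called (-0.20, adjusted p = 0.0534, edgeR).

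**Figure D4:**
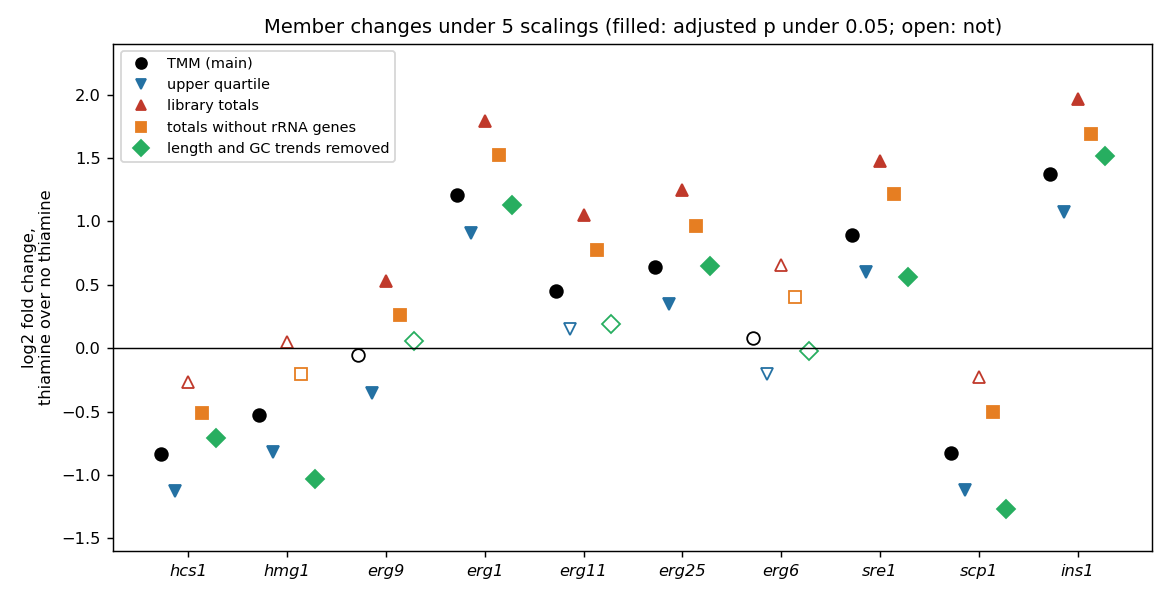
Log2 fold change (thiamine over no thiamine) of each member under 5 scalings, with filled symbols for an adjusted p under 0.05. *erg1*, *erg25*, *sre1* and *ins1* lie above 0 and are filled under all 5, while *hmg1*, *erg9* and *erg6* lie on both sides of 0.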

How the data were processed

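The authors deposited a table of counts of reads per gene for 6 libraries, without normalization, made with a stranded poly(A) kit. The submitters' processing notes name STAR and DESeq2 without versions. The counting program and the genome build are not given in the sources used here. A second deposited table pairs gene IDs with names, aliases, types, positions and transcript lengths (other values, in bp). Its columns of the authors' own comparison (mean level, log2 fold change, standard error, test statistic and p-values) were not used. All 6 sample columns were used. Positions, exon lengths and GC content came from RefSeq (ASM294v3), whose gene spans overlapped the deposited ones for 99.984% of 6199 genes.

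Counts were tested with edgeR 4.0.16 in R 4.3.3 (TMM, default filter on low counts, robust quasi-likelihood F test), which covered 5434 genes. Standard errors are the log2 fold change divided by the square root of F, and intervals are 95%. Alternatives were DESeq2 1.42.0, other scalings, no filter, the replicate number as a block, loess removal (span 0.5) of trends with length and GC content, and each library left out. Near-identical stretches were searched with blastn 2.17.0. No pair of libraries agreed within counting noise. On simulated counts with the sizes of this comparison, edgeR recovered 87 of 97 genes changed by 1 on the log2 scale. It recovered 98 of 100 changed by 2, with 9 false calls among 5367 genes tested. Changed genes were a small part of these counts, whereas 69.8% of all genes were called in the data. How the choice of scaling bears on the calls was therefore not tested in this way.

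The members and the lists of 33 other genes were written from general knowledge, with earlier results of these data known. Named with values were all members, and other listed genes called with an absolute log2 fold change of at least 1. *erg8*, *erg10*, *erg12*, *idi1*, *erg7*, *erg31*, *sts1*, *erg5*, *ccr1*, *dap1*, *dsc2*, *dsc4*, *cdc48*, *sre2* and *are2* were added after their values were seen, to describe steps of the pathway.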

Additional observations from a re-analysis of the deposited data

How the results depend on the processing

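Under TMM 8 of the 10 members were called, and this stayed at 8 without any 1 of the libraries. The other pathway genes called numbered 23 to 26 and all genes called 3440 to 3994 in these fits, beside 25 and 3794. With library totals the value of *hmg1* was 0.0512, that of *hcs1* -0.27, that of *scp1* -0.23, that of *erg9* 0.53, that of *erg31* 0.17, that of *dap1* 0.27, that of *dsc2* 0.16, that of *dsc4* 0.0706, that of *cdc48* 0.15 and that of *nup211* 0.40. With library totals without ribosomal RNA genes it was -0.20 for *hmg1*, 0.26 for *erg9*, 0.0035 for *dap1* and 0.15 for *nup211*. Upper-quartile normalization gave -0.35 for *erg9*, 0.15 for *erg11*, -0.20 for *erg6*, -0.0456 for *ccr1* and -0.47 for *nup211*. With the trends of length and GC content removed, *erg11* was at 0.19, *erg9* at 0.0552, *erg6* at -0.0199, *ccr1* at -0.0204 and *nup211* at -0.77. With the replicate block added to that removal, *erg11* was at 0.19, *erg9* at 0.0514, *erg6* at -0.0588 and *ccr1* at -0.0225. With single libraries left out *erg6* ranged from -0.25 to 0.35. The cause of these moves was not tested, except that each whole-library scaling moves all genes together. The correlations of same-numbered deviations were -0.005, 0.086 and -0.028. With 3 libraries per group such values cannot show whether replicate numbers pair the cultures. The replicate block alone changed no member call (8), ended that of *erg5* (adjusted p = 0.0631, edgeR) and gave 3719 calls over all genes. Low counts limited *erg6*, *erg8*, *erg27* and *dsc3*, which overlap other genes and had at most 177 counts in any library. The cause of these low counts was not tested.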
